A study of Mus musculus with 8 samples.

Results

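Conjugating transferases are the enzymes of phase II metabolism, which join a small polar group to drugs, bile pigments, hormones and products of oxidation so that they can leave the liver in bile or blood. The genes taken here were those whose symbol in the platform annotation starts with Gst, Mgst, Ugt1, Ugt2, Ugt3 or Sult. They came to 50 of the 19560 genes measured, of which 23 were glutathione S-transferases (GST), 16 UDP-glycosyltransferases (UGT) and 11 sulfotransferases (SULT). Each gene was taken by its name, though the families were chosen with earlier results of these data known.

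Liver RNA of 8 male mice aged 6 weeks was measured on Affymetrix arrays, 1 array per mouse and 4 mice per genotype. In the Tak1/Casp8 mice, TAK1 and caspase 8 were both deleted in liver parenchymal cells (LPC), the hepatocytes and bile duct cells. In the Tak1/Rip3 mice, TAK1 was deleted in the same cells and Rip3 was knocked out (Rip3-/-) without a cell restriction in the label. TAK1 is a kinase of inflammatory signalling whose loss in these cells leads to cell death, caspase 8 starts apoptosis and RIP3 drives necroptosis, and the study set the 2 genotypes side by side to separate the genes under each form of death. Both groups lack TAK1 in parenchymal cells, mice with intact TAK1 were not analysed here, and the labels name no driver of the deletion. No litter, cage or scan is given either, so these cannot be told apart from genotype. The sample titles carry running numbers that separate the genotypes fully, and the labels do not say what these numbers mean. Every value below is a log2 intensity, and a difference is Tak1/Casp8 minus Tak1/Rip3 on that scale.

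The arrays resembled each other closely. Median probe set values lay between 8.06 and 8.16, and pairs of arrays correlated at 0.975 to 0.993. Casp8 averaged 9.97 ± 0.13 in Tak1/Casp8 livers and 11.27 ± 0.13 in Tak1/Rip3 livers (SD, n = 4 each), and Ripk3, which encodes RIP3, averaged 7.90 ± 0.09 in Tak1/Casp8 livers and 6.92 ± 0.38 in Tak1/Rip3 livers, so each was lower in the genotype whose label names its loss. Of 7 hepatocyte markers, all but Ass1 were bright in both groups. The mean level over the 7 was 12.47 to 12.67 in Tak1/Casp8 arrays and 12.46 to 12.56 in Tak1/Rip3 arrays. Ass1, on 1 probe set, averaged 7.14 in Tak1/Casp8 and 7.05 in Tak1/Rip3 livers. With limma's test, 0 of the 7 passed, and 1, Tat, had an unadjusted p under 0.05 (0.50, adjusted p = 0.0652).

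GSTs join glutathione to reactive electrophiles, and their classes (alpha, mu, pi, theta and others) differ in the substrates they take. UGTs of families 1 and 2 join glucuronic acid to bilirubin, steroids and drugs, while the human UGT3A enzymes use other sugars. SULTs carry sulfate from the donor PAPS to phenols, steroids and thyroid hormones.

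Of the 50 transferases, 2 were higher and 3 were lower in Tak1/Casp8 livers at an adjusted p under 0.05 in limma's moderated test, adjusted over all genes. These calls are 10% of the members, against 6.69% of all genes (2.64% higher and 4.05% lower). The 2 higher genes were both of family UGT3, and the 3 lower genes were the GSTs Gstt2 and Gstm2 and the sulfotransferase Sult1b1. A further 12 members had an unadjusted p under 0.05 without passing. Unadjusted p-values under 0.05 were found for 17 of 50 members in all, beside 4130 of 19560 genes. The 4 values of one group lay wholly beyond those of the other for 10 members, 2 higher and 8 lower, and for 14.6% of all genes (6.33% higher, 8.30% lower). The median difference was -0.04 over the members and 0.01 over all genes, and 54% of the members and 47.4% of all genes had a negative difference. In whole liver, fewer cells of a type and less RNA per cell cannot be told apart.

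**Figure D1:**
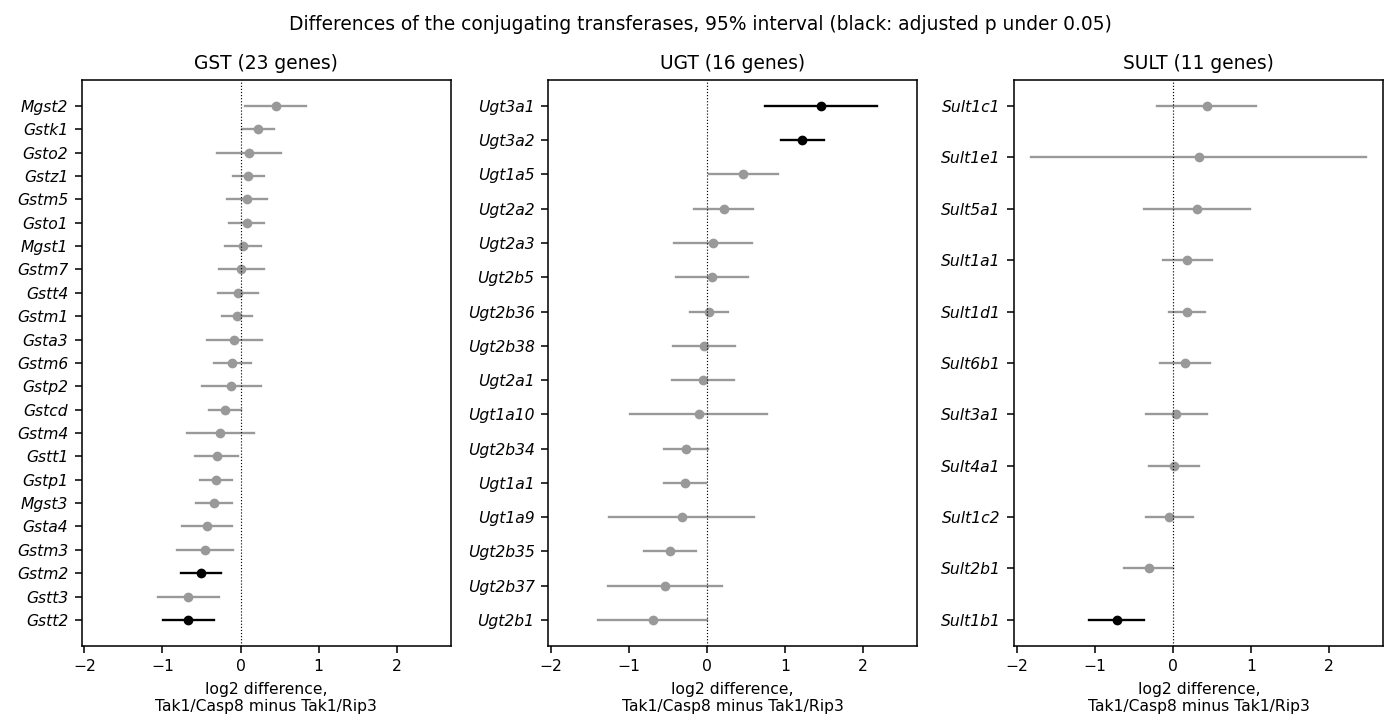
Log2 difference (Tak1/Casp8 minus Tak1/Rip3) of each of the 50 transferases, by family, with limma's 95% interval; black points have an adjusted p under 0.05. Ugt3a1 and Ugt3a2 stand at the upper end of the UGT panel, and most GST intervals cross 0.

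Both genes of the UGT3 pair were called higher in Tak1/Casp8 livers, Ugt3a2 without overlap of the groups and Ugt3a1 with overlap. Ugt3a2 read 11.54, 11.67, 11.41 and 11.87 in Tak1/Casp8 livers, against 10.57, 10.31, 10.49 and 10.22 in Tak1/Rip3 livers. The groups did not overlap, and the difference of 1.22 (SE 0.12, 95% interval 0.95 to 1.50, limma adjusted p = 0.000520) is 2.33-fold. Each of its 4 probe sets passed on its own, with differences of 1.18 to 1.38, where 1.63% of all probe sets were called and 0.542% were called higher. Ugt3a1 read 9.50, 10.27, 8.71 and 10.31 in Tak1/Casp8 livers, against 8.73, 8.03, 8.09 and 8.10 in Tak1/Rip3 livers. All 5 of its probe sets had a positive difference, from 1.39 to 1.99, and 3 passed alone. Among them, only the probe set with the smallest difference had overlapping groups. In the median over them the groups touched, since Tak1/Casp8 replicate 3 lay just under Tak1/Rip3 replicate 1. The difference was 1.46 (SE 0.32, interval 0.74 to 2.18, limma adjusted p = 0.0242), or 2.75-fold. This call was lost when Tak1/Casp8 replicate 2 (adjusted p = 0.0674) or Tak1/Rip3 replicate 2, 3 or 4 (0.0575, 0.0634 and 0.0728) was left out, and without both of the arrays that correlated least with their group (1.19, 0.0932), whereas Ugt3a2 kept its call with any 1 of the 8 arrays left out.

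Ugt3a1 and Ugt3a2 are neighbours in the RefSeq gene order and alike enough that the annotation gives 6 further probe sets to both. Those 6 hold 4 distinct sets of values, all higher in Tak1/Casp8 livers with no overlap of the groups. At the gene level the share without overlap was 14.6%, and that over all probe sets is not given. The 4 measure a pair this alike, so they are not independent counts. Their differences ran from 1.22 to 1.45 (limma adjusted p = 0.00513 to 0.0234, adjusted over all probe sets). The median over them was 10.67, 10.92, 10.32 and 10.96 in Tak1/Casp8 livers, against 9.53, 9.42, 9.35 and 9.28 in Tak1/Rip3 livers. Because the pair can share signal, how much of each value belongs to which gene is uncertain, while the higher level was seen in single-gene and shared probe sets alike.

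The start of Ugt3a1 is shown because it is the gene with the largest difference among the members and has a window in the RefSeq promoter table (GRCm38.p6, 250 bases before to 50 after the start). It lies at chr15:9279579-9279878 on the plus strand and is printed 5′ to 3′. The capitals mark a match to GTTAAT, the half-site of the liver factor HNF1, read on the other strand.
Ugt3a1: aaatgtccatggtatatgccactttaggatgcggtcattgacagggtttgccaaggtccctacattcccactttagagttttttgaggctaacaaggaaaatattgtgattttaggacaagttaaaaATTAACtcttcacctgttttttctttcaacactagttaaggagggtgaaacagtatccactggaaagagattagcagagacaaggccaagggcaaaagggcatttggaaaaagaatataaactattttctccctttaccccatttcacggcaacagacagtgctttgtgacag
The table holds 58 windows for 46 members, and GTTAAT on either strand occurs in 8 of the 58 (13.8%), against 7.1% of all 32851 windows. The 8 belong to Gsta3, Sult1a1, Sult1d1, Ugt1a1, Ugt1a9, Ugt1a10, Ugt2a3 and Ugt3a1, of which only Ugt3a1 was called. The core of the NRF2 antioxidant response element, TGACNNNGC, matched 4 member windows (Gsta3, Gstm5, Gstm7 and Mgst1; 6.9%), against 12.4% of all windows. The AHR element core GCGTG matched 11 (19%), against 32.4% of all. None of the 3 motifs contains another, all were searched on both strands, and a match is a description of the letters in a window, not a binding site.

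**Figure D2:**
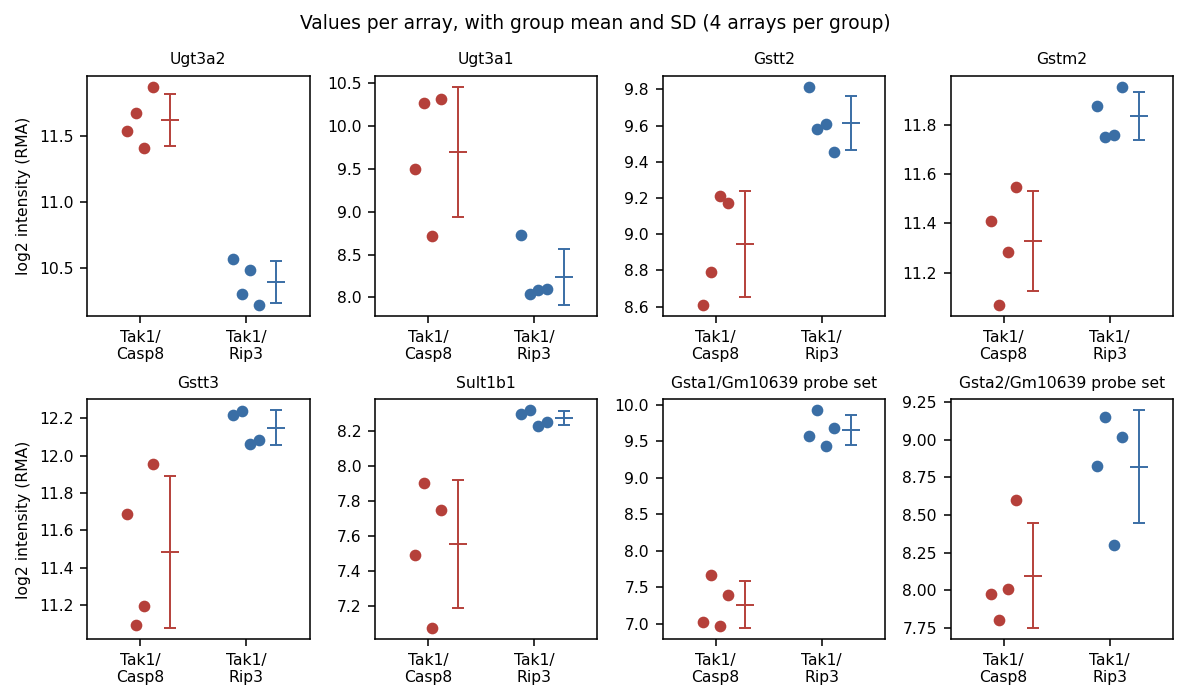
Log2 intensity on each array (points; replicates 1 to 4 from left to right) with the group mean and SD beside them, for the 5 called members, Gstt3 and 2 shared probe sets. Both UGT3 genes sit higher in Tak1/Casp8 livers and the other panels sit lower, with the widest gap for the Gsta1/Gm10639 probe set.

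Among the GSTs, 0 of 23 were higher and 2 were lower in Tak1/Casp8 livers, beside 2.64% higher and 4.05% lower over all genes. The family's median difference was -0.10. That median was -0.16 with Tak1/Casp8 replicate 4 left out and -0.05 with Tak1/Casp8 replicate 1 left out. Leaving out Tak1/Rip3 replicate 1 or 4 gave -0.06 or -0.04. Unadjusted, 10 of the 23 GSTs had a p under 0.05, beside 4130 of 19560 genes. Among the 10, Gstk1 and Mgst2 had positive differences (0.23 and 0.45). Mgst2 was dim in both groups, 3 of its 5 probe sets had a negative difference, and its brightest differed by -0.01. The theta class, which acts on small halogenated and other compounds, had the lowest median of the GST classes with more than 1 member. All 4 of its members had a negative difference (median -0.49) and Gstt2 was called. That ranking leaves aside the alpha genes Gsta1 and Gsta2, whose 15 distinct shared probe sets had a median difference of -0.84. Gstt2 read 8.61, 8.79, 9.21 and 9.17 in Tak1/Casp8 livers, against 9.81, 9.58, 9.61 and 9.46 in Tak1/Rip3 livers. The groups were apart, with a difference of -0.67 (SE 0.15, limma adjusted p = 0.0236), which is 1.59-fold lower. All 7 of its probe sets had a negative difference, although 0 passed by themselves. Gstt3, which rests on 1 probe set, read 11.69, 11.09, 11.19 and 11.96 in Tak1/Casp8 livers, against 12.22, 12.24, 12.06 and 12.08 in Tak1/Rip3 livers. Its groups did not overlap either, but the difference of -0.67 (SE 0.18) missed the threshold at an adjusted p of 0.0510. Gstt1 differed by -0.31 (SE 0.13, adjusted p = 0.196) and Gstt4, dim in both groups, by -0.03. The Gstt2 call was lost without Tak1/Casp8 replicate 1 or 2 (adjusted p = 0.0512 and 0.0717) or Tak1/Rip3 replicate 1 or 3 (0.0746 and 0.0574), and with the brightest probe set alone (-0.51, adjusted p = 0.134).

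Of the 7 mu-class genes, which handle epoxides and quinones, 1 was lower and 0 were higher, beside 4.05% and 2.64% of all genes. Of the 7, 5 had a negative difference (median -0.10), beside 47.4% of all genes. The lower one was Gstm2, at 11.41, 11.07, 11.28 and 11.55 in Tak1/Casp8 livers against 11.88, 11.75, 11.76 and 11.95 in Tak1/Rip3 livers. Its groups were apart, with a difference of -0.51 (SE 0.12, interval -0.77 to -0.25, limma adjusted p = 0.0274), or 1.42-fold lower. Its 6 probe sets all had a negative difference and 0 passed alone. Gstm3 pointed the same way without passing, at -0.46 (SE 0.16, adjusted p = 0.130). Gstm1, bright in every liver, read 13.34 ± 0.08 in Tak1/Casp8 livers and 13.39 ± 0.07 in Tak1/Rip3 livers (SD, n = 4 each), a difference of -0.05 (SE 0.09, interval -0.24 to 0.15, adjusted p = 0.816). Of its 5 probe sets, 4 lay above 13 in both groups, near the top of the scale where differences can be compressed, and differed by -0.05 to 0.02. The Gstm1 probe set away from that level averaged 7.79 in Tak1/Casp8 livers and 8.20 in Tak1/Rip3 livers (-0.41, SE 0.17, adjusted p = 0.292 over all probe sets). Whether Gstm1 and Gstm2 differ in their response was not tested. Gstm4, Gstm5, Gstm6 and Gstm7 differed by -0.26 to 0.08. The Gstm2 call was lost without Tak1/Casp8 replicate 2 or 3 (adjusted p = 0.0721 and 0.0703) or Tak1/Rip3 replicate 1, 3 or 4 (0.0800, 0.0536 and 0.0879). With its brightest probe set the difference was -0.17 (adjusted p = 0.569).

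The alpha class was measured largely by probe sets that Gsta1, Gsta2 and the neighbouring gene model Gm10639 share, which the single-gene rule leaves aside. Gsta1 and Gsta2 encode glutathione transferases that also reduce lipid peroxides. The 3 promoter windows are printed here as sequence only, and the capitals mark the longest run that all 3 have in common, 24 bases. They are from the RefSeq table of GRCm38.p6 and are printed 5′ to 3′ in the sense of each gene, Gsta1 at chr9:78230419-78230718 (plus), Gsta2 at chr9:78347096-78347395 (minus) and Gm10639 at chr9:78289678-78289977 (plus).
Gsta1: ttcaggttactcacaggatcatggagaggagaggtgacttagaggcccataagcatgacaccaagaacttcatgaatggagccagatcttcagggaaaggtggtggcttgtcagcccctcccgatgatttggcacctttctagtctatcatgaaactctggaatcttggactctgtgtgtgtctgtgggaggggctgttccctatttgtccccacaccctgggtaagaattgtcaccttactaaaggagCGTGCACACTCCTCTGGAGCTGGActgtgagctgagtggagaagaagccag
Gsta2: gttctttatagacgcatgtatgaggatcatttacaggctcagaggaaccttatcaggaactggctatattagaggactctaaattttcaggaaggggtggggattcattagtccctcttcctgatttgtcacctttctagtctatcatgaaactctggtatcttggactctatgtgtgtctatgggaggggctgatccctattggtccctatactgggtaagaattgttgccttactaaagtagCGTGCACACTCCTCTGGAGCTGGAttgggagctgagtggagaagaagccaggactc
Gm10639: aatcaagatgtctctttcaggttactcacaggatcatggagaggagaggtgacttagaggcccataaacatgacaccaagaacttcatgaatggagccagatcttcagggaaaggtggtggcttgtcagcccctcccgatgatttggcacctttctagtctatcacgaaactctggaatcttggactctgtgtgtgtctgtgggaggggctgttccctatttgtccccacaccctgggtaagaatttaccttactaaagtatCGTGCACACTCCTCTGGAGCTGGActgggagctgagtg
Of these 28 shared probe sets 16 were lower in Tak1/Casp8 livers and 0 were higher, beside 1.09% of all probe sets called lower. Several repeat the same values under 2 or more names, and over the 15 distinct sets of values 8 were lower. All 15 differences were negative, from -2.39 to -0.29 with a median of -0.84, and 13 had groups that did not overlap. At the gene level 14.6% of all genes had no overlap, and the share over all probe sets is not given. These sets are given to several genes at once and can share signal, so they are not independent counts. The median over them was 11.12, 11.12, 10.98 and 11.79 in Tak1/Casp8 livers, against 12.43, 12.11, 12.16 and 12.34 in Tak1/Rip3 livers. The 8 calls became 2 after a shift of each array to 1 median, and 1 or 2 with any 1 of Tak1/Casp8 replicates 1 to 3 or of the Tak1/Rip3 replicates left out. Without Tak1/Casp8 replicate 4 they became 12.

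The widest gap lay in a probe set given to Gsta1 and Gm10639 alone, which the files list under 2 names with identical values. It read 7.03, 7.67, 6.97 and 7.39 in Tak1/Casp8 livers, against 9.57, 9.92, 9.44 and 9.68 in Tak1/Rip3 livers. The groups lay far apart, at -2.39 (SE 0.19, interval -2.81 to -1.96, limma adjusted p = 0.00149), or 5.24-fold lower, and this call held in all 13 alternative settings of the probe set fit (-2.52 to -2.29). The probe set given to Gsta2 and Gm10639 alone averaged 8.09 ± 0.35 in Tak1/Casp8 livers and 8.82 ± 0.37 in Tak1/Rip3 livers (SD, n = 4 each), a difference of -0.73 (SE 0.23, adjusted p = 0.181). The first minus the second was -0.83 ± 0.48 on the Tak1/Casp8 arrays and 0.83 ± 0.21 on the Tak1/Rip3 arrays. This pair of probe sets was picked after its values were seen, so the difference is given without a test. The single-gene alpha members were Gsta4, which clears the lipid peroxidation product 4-hydroxynonenal and differed by -0.43 (SE 0.15, adjusted p = 0.113), and Gsta3, at -0.08 (SE 0.16, adjusted p = 0.825).

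**Figure D3:**
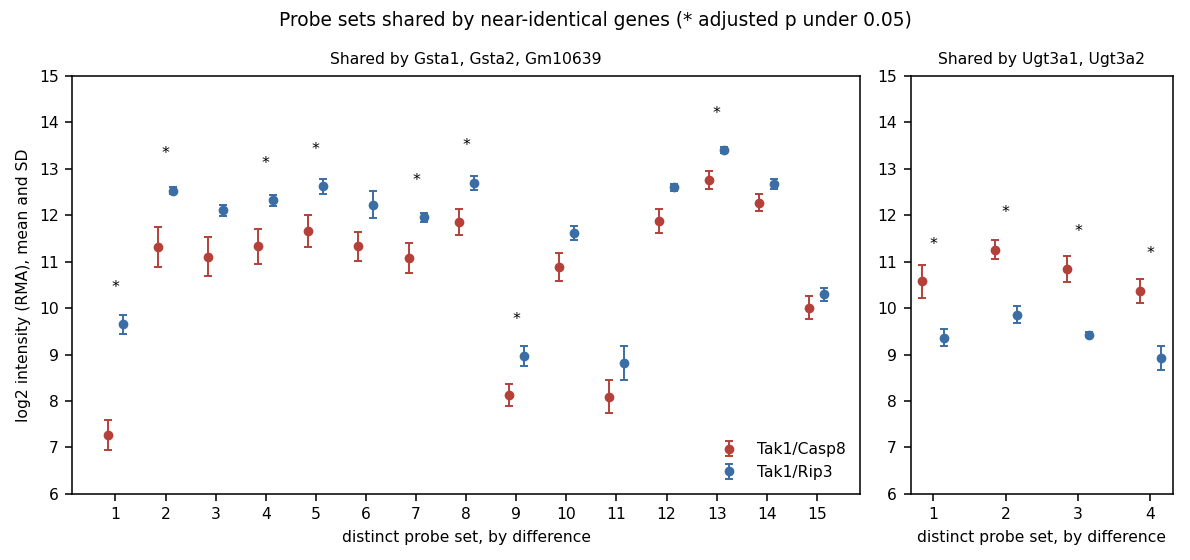
Mean and SD (n = 4 arrays per genotype, log2 intensity) of each distinct probe set shared by Gsta1, Gsta2 and Gm10639 (left, 15) and by Ugt3a1 and Ugt3a2 (right, 4), ordered by difference; a star marks an adjusted p under 0.05. Tak1/Casp8 lies under Tak1/Rip3 in all 15 on the left and above it in all 4 on the right.

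The remaining GSTs did not pass at the gene level. Gstp1, the pi-class enzyme that is abundant in male mouse liver, read 12.57, 12.65, 12.63 and 12.83 in Tak1/Casp8 livers, against 13.10, 12.99, 12.92 and 12.93 in Tak1/Rip3 livers. Its groups did not overlap, with a difference of -0.32 (SE 0.09, adjusted p = 0.0774), and the 4 probe sets it shares with Gstp2 ran from -0.38 to -0.20, with 0 called (limma; 2 at an unadjusted p under 0.05). Mgst3, a microsomal enzyme with glutathione peroxidase activity, also had groups that were apart, at -0.34 (adjusted p = 0.0872). Of its 5 probe sets 4 had a negative difference and 1 a positive difference (0.10). In the fit over all probe sets, 1 of the 5 was called lower (-0.70, limma adjusted p = 0.0421), beside 1.09% of all probe sets. Its relative Mgst1 differed by 0.04 (SE 0.10, interval -0.19 to 0.27). Gstk1, the kappa-class enzyme of mitochondria and peroxisomes, lay higher in each Tak1/Casp8 liver than in any Tak1/Rip3 liver, by 0.23 (SE 0.09, adjusted p = 0.194). Gstcd, a gene with a GST-like C-terminal domain, had groups apart the other way, at -0.20 (adjusted p = 0.238). Gstz1, which works in tyrosine breakdown, and Gsto1, which can reduce dehydroascorbate, differed by 0.10 and 0.08.

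Among the 11 sulfotransferases, 0 were higher and 1 was lower, beside 2.64% higher and 4.05% lower over all genes. Of the 11, 8 had a positive difference, where 47.4% of all genes had a negative one, and the median was 0.16. That median was 0.06 without Tak1/Rip3 replicate 2, 0.05 with the brightest probe sets and 0.01 without both of the arrays that correlated least with their group. The lower one was Sult1b1, which sulfates phenols and thyroid hormones. It read 7.49, 7.90, 7.07 and 7.75 in Tak1/Casp8 livers, against 8.30, 8.32, 8.23 and 8.25 in Tak1/Rip3 livers. The Tak1/Rip3 livers were tightly grouped and all 4 Tak1/Casp8 livers lay under them. The difference was -0.72 (SE 0.16, interval -1.08 to -0.37, limma adjusted p = 0.0244), or 1.65-fold lower. All 12 of its probe sets had a negative difference, from -1.37 to -0.18, and 2 passed alone. The call was lost without Tak1/Casp8 replicate 1 (adjusted p = 0.0610) or any 1 of the Tak1/Rip3 replicates (0.0515 to 0.0692), and with the brightest probe set (-0.55, adjusted p = 0.156). The bright SULT genes were Sult1a1, a phenol sulfotransferase, at 0.18 (SE 0.14, interval -0.13 to 0.50, adjusted p = 0.508), and Sult1d1, which in the mouse acts on catecholamines, at 0.18 (SE 0.10, interval -0.05 to 0.41, adjusted p = 0.365). Sult2b1, which sulfates cholesterol, differed by -0.31 (SE 0.14, adjusted p = 0.226).

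Hydroxysteroid sulfotransferases of family 2A, which sulfate bile acids and steroids, mostly lack a current symbol in the annotation and fell outside the members. Matched through RefSeq synonyms, Sult2a8 read 4.78, 5.72, 4.18 and 6.85 in Tak1/Casp8 livers, against 7.23, 6.20, 7.61 and 7.48 in Tak1/Rip3 livers. Tak1/Casp8 replicate 4 lay above Tak1/Rip3 replicate 2, so the groups overlapped, and the difference of -1.75 (SE 0.51) had an adjusted p of 0.0728. Sult2a3, Sult2a4 and Sult2a6 differed by -0.43 to 0.06, and Sult3a2 and Sult6b2 by -0.04 and 0.06, with 0 called (limma; Sult2a8 and Sult2a3 had an unadjusted p under 0.05). In 3 probe sets shared by Sult2a1 and its copies the differences ran from -3.09 to -0.84 with 0 called (limma; all 3 at an unadjusted p under 0.05). The first of these averaged 6.63 ± 2.08 in Tak1/Casp8 livers and 9.72 ± 0.89 in Tak1/Rip3 livers (SD, n = 4 each; SE of the difference 0.95, adjusted p = 0.165), so a wide spread within the groups stood beside a large mean difference.

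Families UGT1 and UGT2 gave 0 calls in 14 genes, beside 6.69% of all genes. Of the 14, 3 had an unadjusted p under 0.05 in limma's test (Ugt1a1, Ugt1a5 and Ugt2b35). Ugt1a1, the bilirubin glucuronosyltransferase, read 13.09, 12.65, 13.07 and 13.07 in Tak1/Casp8 livers, against 13.28, 13.11, 13.39 and 13.22 in Tak1/Rip3 livers. The groups were just apart, and the difference of -0.28 (SE 0.12) had an adjusted p of 0.219. Ugt1a5 differed by 0.47 (SE 0.20, adjusted p = 0.206), with overlap. The 4 UGT1 genes rest on 1 probe set each. Of the 7 UGT2B genes, which take steroids and bile acids, 5 had a negative difference and the median was -0.27. Ugt2b35 came nearest to the threshold at -0.47 (SE 0.15, adjusted p = 0.0927). Ugt2b34 and Ugt2b36, both bright in every liver, differed by -0.27 (SE 0.12, adjusted p = 0.257) and 0.03 (SE 0.11, interval -0.22 to 0.27). Ugt2a1 and Ugt2a2 were dim, and the 5 probe sets they share differed by 0.11 to 0.27, with 0 called and 0 non-overlapping.

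In both groups 9 members averaged under the lower quartile of the probe set values of every array, so that a change in them could be compressed. They were Gsto2, Gstt4, Mgst2, Ugt2a1, Ugt2a2, Sult1c1, Sult3a1, Sult4a1 and Sult6b1. Their differences ran from -0.05 to 0.45, the largest being that of Mgst2 (SE 0.18, limma adjusted p = 0.172). Of the 5 Mgst2 probe sets, 3 had a negative difference. No filter on dim genes was set. With the dimmest 30% of genes left out, 40 members remained, and with the dimmest 50% 35 remained.

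Most transferases had a wider spread between Tak1/Casp8 mice than between Tak1/Rip3 mice. The SD was larger in the Tak1/Casp8 group for 39 of the 50 members (78%), against 52.4% of all genes. The median SD was 0.258 in Tak1/Casp8 and 0.159 in Tak1/Rip3 livers over the members, and 0.166 in Tak1/Casp8 and 0.160 in Tak1/Rip3 livers over all genes. Sult1e1, the estrogen sulfotransferase, was the extreme case, at 10.02, 5.67, 8.28 and 4.71 in Tak1/Casp8 livers against 6.80, 5.87, 7.62 and 7.07 in Tak1/Rip3 livers. Tak1/Casp8 replicates 1 and 3 were far above replicates 2 and 4, while the means differed by 0.33 (SE 0.97, adjusted p = 0.891). Ugt2b1 ran the other way, with 11.02, 11.73, 10.63 and 12.44 in Tak1/Casp8 livers against 12.20, 12.29, 12.08 and 12.03 in Tak1/Rip3 livers. Its low values were those of the mice in which Sult1e1 was high.

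The order of the Tak1/Casp8 mice in Ugt2b1, with replicate 4 highest, then 2, 1 and 3, recurred in 12 of the 49 other members (24.5%) and in 8.76% of all other genes. It held in 7 of the 15 other UGTs, namely Ugt1a9, Ugt1a10, Ugt2a1, Ugt2a3, Ugt2b37, Ugt3a1 and Ugt3a2. Ugt2a1 was dim, at 2.694 and 2.688 in Tak1/Casp8 replicates 1 and 3, so its place here rests on a very small gap. Ugt1a9 read 9.77, 10.80, 8.84 and 11.03 in Tak1/Casp8 livers, against 10.54, 10.90, 9.96 and 10.34 in Tak1/Rip3 livers. Ugt2b37 read 9.04, 9.60, 8.41 and 10.25 in Tak1/Casp8 livers, against 10.14, 10.05, 9.51 and 9.74 in Tak1/Rip3 livers. In both genes the Tak1/Casp8 values spanned more than those of Tak1/Rip3 and overlapped them. The order was noticed in the values, several of these genes are close copies, and replicate 4 correlated least with its own group, so the counts are given without a test.

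**Figure D4:**
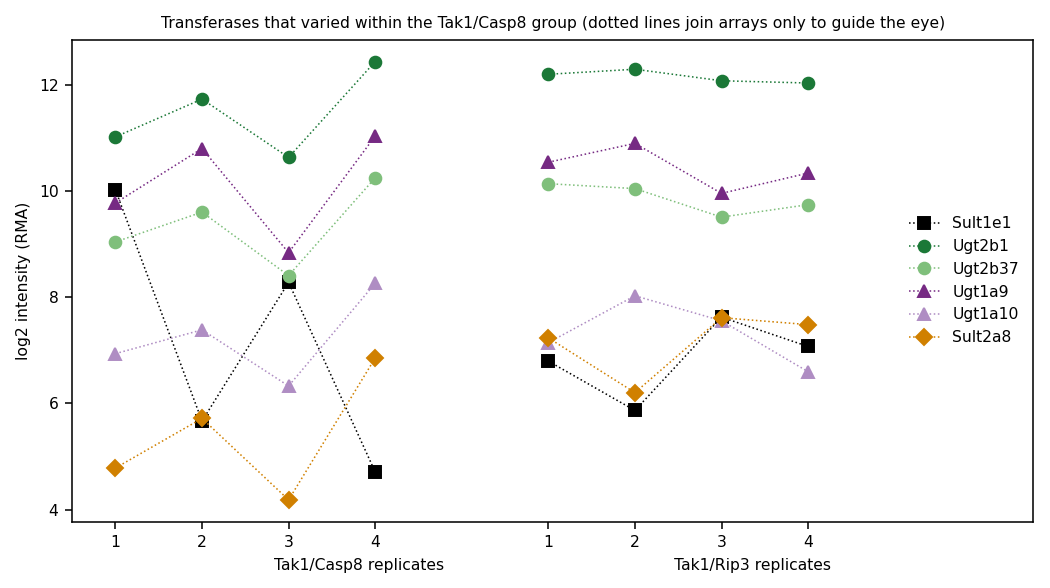
Log2 intensity of 6 sulfotransferase and UGT genes on each array, Tak1/Casp8 replicates on the left and Tak1/Rip3 replicates on the right; levels of different genes are not comparable. On the Tak1/Casp8 arrays the 4 UGTs and Sult2a8 are highest in replicate 4 and lowest in replicate 3, and Sult1e1 is highest in replicate 1 and lowest in replicate 4.

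Among genes that supply the conjugating groups, calls numbered 1 of 11, 0 of 4 and 1 of 6 in 3 lists, beside 6.69% of all genes. Of 11 genes of glutathione supply, 1 was lower and 0 were higher (median -0.08). It was Gss, glutathione synthetase, with means of 10.52 in Tak1/Casp8 and 10.92 in Tak1/Rip3 livers (difference -0.40, SE 0.09, limma adjusted p = 0.0210). Slc3a2 and Gclc each differed by -0.22 and did not pass. Of 4 measured genes of UDP-glucuronate supply, 0 passed (limma; 2 at an unadjusted p under 0.05), and Ugp2, Slc35d1 and Ugdh differed by -0.27, 0.24 and -0.13. Of 6 genes around the sulfate donor PAPS, 1 was lower, Slc35b2, which carries PAPS into the Golgi (-0.42, SE 0.10, adjusted p = 0.0389). The PAPS synthases Papss2 and Papss1 differed by -0.25 and 0.28.

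Of 11 other conjugating enzymes 2 were higher and 0 lower, namely Baat, which joins bile acids to taurine or glycine (10.83 in Tak1/Casp8 and 10.12 in Tak1/Rip3 livers, difference 0.71, adjusted p = 0.00807), and the glycine methyltransferase Gnmt (0.42, adjusted p = 0.0322), beside 2.64% of all genes called higher. The other 9 did not pass, and 5 of the 11 had a negative difference, among them the N-acetyltransferase Nat8 (-0.65, SE 0.28, adjusted p = 0.218). Of 5 exporters of conjugates 1 was higher, Abcc3, which returns glucuronides to the blood (12.12 in Tak1/Casp8 and 11.29 in Tak1/Rip3 livers, difference 0.83, SE 0.15, adjusted p = 0.00880). Abcc2, which sends conjugates into bile, differed by -0.27 (adjusted p = 0.100) and Abcb1a by 0.31.

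All 10 sentinel targets of the receptors and of NRF2 that govern transferase genes had a negative difference (median -0.26), and 1 passed. Over all genes, 47.4% had a negative difference and 4.05% were called lower. Several of the 10 hardly differed, such as Cyp1a2 at -0.05 and Cyp3a11 at -0.04 (limma adjusted p = 0.877 and 0.909). The target that passed was the NRF2 target Srxn1 (-0.66, SE 0.11, adjusted p = 0.00727). The CAR target Cyp2b10 (-1.41, SE 0.43, adjusted p = 0.0811) and the NRF2 target Nqo1 (-0.56, SE 0.19, adjusted p = 0.123) did not pass. Of 14 regulators themselves 1 was higher, the hepatocyte factor Cebpa (0.37, SE 0.10, adjusted p = 0.0468), beside 2.64% of all genes. None was lower (0), and the median was 0.09. Bach1 and Mafg, a repressor and a partner at NRF2 sites, differed by 0.26 and 0.27, and Nfe2l2, which encodes NRF2, by -0.15 (adjusted p = 0.517).

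**Figure D5:**
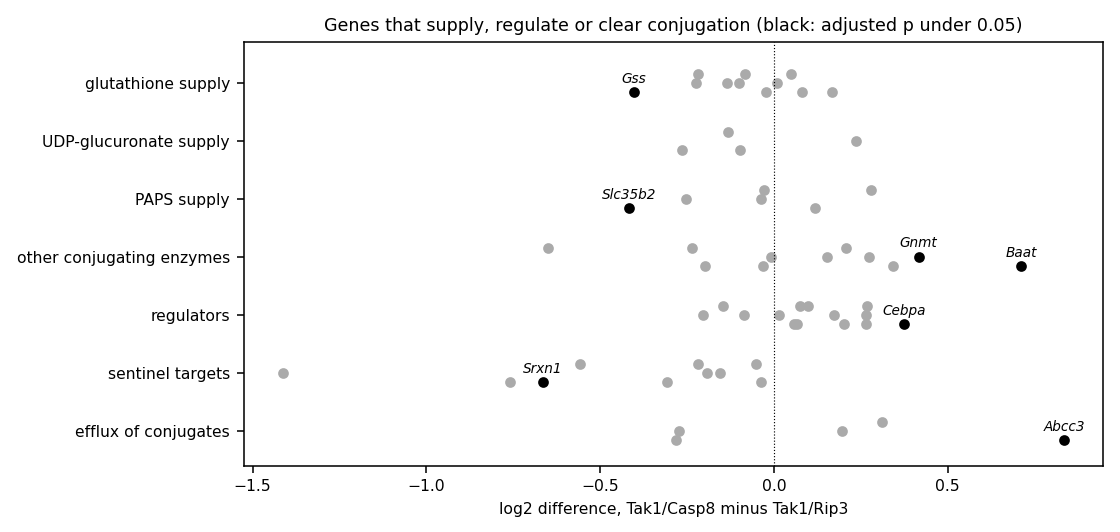
Log2 difference (Tak1/Casp8 minus Tak1/Rip3) of each measured gene in 7 lists of genes that supply, regulate or clear conjugation; black points, which are named, have an adjusted p under 0.05. All 10 sentinel targets lie left of 0.

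Markers of other cell types gave calls in some lists, beside 6.69% of all genes called (2.64% higher and 4.05% lower). Dividing-cell markers were lower for all 4 of 4 measured genes (median -1.42; mean level 7.36 to 8.49 in Tak1/Casp8 and 8.74 to 9.49 in Tak1/Rip3 arrays). All 6 stellate cell markers had a negative difference, beside 47.4% of all genes, and Lrat was called. Their mean level was 9.90 to 10.45 in Tak1/Casp8 and 10.44 to 10.67 in Tak1/Rip3 arrays. Of 7 bile duct and progenitor markers 1 was higher (Spp1) and 1 lower (Prom1, by -1.76), of 6 macrophage markers 1 was higher (Cd163), of 4 neutrophil markers 1 was higher (Csf3r), and of 4 B and plasma cell markers 1 was higher and 2 lower. Endothelial and T and NK cell markers gave 0 calls of 5 each (limma; 2 each at an unadjusted p under 0.05). The part of these shifts in the transferase differences was not tested.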

How the data were processed

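Total RNA of snap-frozen liver was amplified, biotin-labelled and hybridised, 1 array per mouse, per the labels' protocols. The deposited values are log2 intensities made by the authors with RMA (version not named), per the submitters' processing notes. RMA evens out the arrays, which can hide a change common to most genes, and it compresses differences of dim probe sets. The platform annotation gave 1 gene symbol to 206316 of 223771 probe sets, several to 3734 and none to 13721, and it gave no positions. Each gene took the median over its single-symbol probe sets on each array, 295 for the 50 members, without a filter. All member symbols matched RefSeq. The 49 probe sets shared with another symbol were kept apart and tested in a fit over all probe sets. No probe set carried several Ugt1a symbols (0), so none is reported.

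Groups were compared with limma 3.58.1 (lmFit, eBayes, two-sided) in R 4.3.3 over all 8 arrays, with Benjamini-Hochberg adjustment over all 19560 genes, and a gene was called at an adjusted p under 0.05. The number of arrays limits the precision, and the procedure was tested on simulated data. Named with values were every called member, the 3 members of each family with the highest mean level, and in each list up to 3 genes with the smallest adjusted p. Others were named after their values were seen. Members and lists were chosen with earlier results of these data known. The alternatives changed the normalisation (quantiles, or a shift to 1 median), the summary of a gene (mean or brightest probe set), the filter (30th or 50th percentile of mean level), the variance model (trend with robust fitting, or array weights) and the arrays (each left out once). Leaving out together both arrays that correlated least with their group (Tak1/Casp8 replicate 4 and Tak1/Rip3 replicate 2) was chosen after seeing the data, as were the settings tried for the shared probe sets.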

Additional observations from a re-analysis of the deposited data

Results flagged for a closer look

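In 6 of the 100 groups of 4 arrays (50 members in each genotype), 1 array stood far from the other 3 by Dixon's 95% criterion, which chance alone meets in about 1 in 20 groups. Ugt1a1 was 12.65 in Tak1/Casp8 replicate 2, against 13.07 to 13.09 in the other Tak1/Casp8 livers. Ugt2a2, dim throughout, was 5.42 in the same replicate, against 5.91 to 6.00. In Tak1/Rip3 replicate 3, Gstm1 was 13.28, against 13.42 to 13.44 in the other Tak1/Rip3 livers, and Sult6b1 was 4.63, against 4.17 to 4.24. Ugt2b5 was 10.98 in Tak1/Rip3 replicate 2, against 11.60 to 11.73. Ugt3a1 was 8.73 in Tak1/Rip3 replicate 1, against 8.03 to 8.10, and this is the array whose value reached the lowest Tak1/Casp8 liver.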

How the results depend on the processing

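No call changed direction under any alternative, and Ugt3a2 kept its call in all 17 (1.11 to 1.29). Over all genes, 1308 calls became 759 with the brightest probe set and 706 to 1347 with 1 array left out. The 5 member calls became 9 with the mean over probe sets, 3 with the brightest, 8 with the filter at the 50th percentile, 12 with array weights and 9 with both least correlated arrays left out. With 1 array left out they ranged from 1 (without Tak1/Rip3 replicate 3) to 12 (without Tak1/Casp8 replicate 4). They were 2 without Tak1/Casp8 replicate 2 or Tak1/Rip3 replicate 1 or 4, and 3 without Tak1/Casp8 replicate 1. The 2 GST calls became 5, 1, 5, 8 and 5 in the same 5 settings, 4 with the filter at the 30th percentile, 4 with trend and robust settings, and 0 to 6 with 1 array left out (7 to 10 at an unadjusted p under 0.05). The 2 UGT calls ranged from 1 to 5, and the 1 SULT call from 0 to 1 (1 or 2 unadjusted), with 1 array left out; the SULT count was 0 with the brightest probe set (1 unadjusted). With 1 array left out, the median of the GSTs ranged from -0.16 to -0.04, that of the SULTs from 0.06 to 0.22 and that of the UGTs from -0.22 to 0.08, so the sign of the UGT median is not settled. The 8 calls among distinct shared Gsta1 and Gsta2 sets became 2 after a shift to 1 median and ranged from 1 to 12 with 1 array left out, and the 4 shared UGT3 calls from 3 to 4. Gstt3 was called in 8 of the 17 alternatives. No cause of these moves was tested. No paired analysis was possible because replicate numbers only name the arrays and nothing in the labels pairs the mice. With 4 arrays per group and no detection calls, small differences of dim genes were not detectable.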
